A study of Oryza sativa with 10 samples.

Results

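Starch in the rice grain is assembled from ADP-glucose by a small set of enzymes, and 4 of their genes are described here. They are SSI (LOC9269493) and SSIIa (LOC4340567, also called ALK), 2 soluble starch synthases of the grain, SSII-1 (LOC4348711, also called SSIIc), a further member of the SSII family, and SBE1 (LOC4342117, also called Q-enzyme), starch branching enzyme I. Each was taken by name with 1 fixed probe set of the array, so that 4 genes of the 57258 non-control probe sets are followed. They were taken up with earlier results of these arrays known. Transcript levels had been measured in rice (Oryza sativa, japonica cultivar Zhonghua 11, grown in a phytotron) on 10 Affymetrix rice genome arrays, 2 biological repeats for each of 5 tissues. The tissues were endosperm and embryo of seeds at 6 days after anthesis, the whole seedling at 10 days, and leaf and root taken from seedlings 7 days old. All plants were of 1 cultivar, the labels name no treatment, and they do not say how many plants or seeds were pooled.

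Starch synthases lengthen the glucan chains of amylopectin by adding glucose from ADP-glucose, and branching enzymes cut such chains and rejoin the pieces as side branches. SSI is known for building the short chains, SSIIa for lengthening them to intermediate size, which sets the gelatinization temperature of rice starch, and SBE1 for making branches in longer chains. In grasses several of these enzymes occur as isoforms used mostly in the grain or mostly in leaves and other organs that hold transient starch. The comparisons ask where each isoform's transcript was high.

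The plot of the 4 genes on every array shows their levels. SSI, SSIIa and SBE1 were highest in endosperm, second in embryo and low in seedling, leaf and root, whereas SSII-1 was measured in all 5 tissues, with means from 544 in root to 2236 in endosperm. The signal is in arbitrary units, on a linear scale, with each array set to the same trimmed mean. A log2 difference is between means of log2(signal + 16), which understates changes of dim probe sets. "Called" means a Benjamini-Hochberg adjusted p under 0.05 over 30014 tested probe sets in limma and at least a 2-fold difference. All 4 fixed probe sets passed the filter of a signal of at least 100 on at least 2 arrays, SSIIa only through endosperm and embryo, as did the SBE1 probe set Os.22169.1.S2_at, so that these had to differ from the other tissues once they were tested. In bulk tissue, fewer cells that express a gene and less RNA per cell cannot be told apart.

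**Figure D1:**
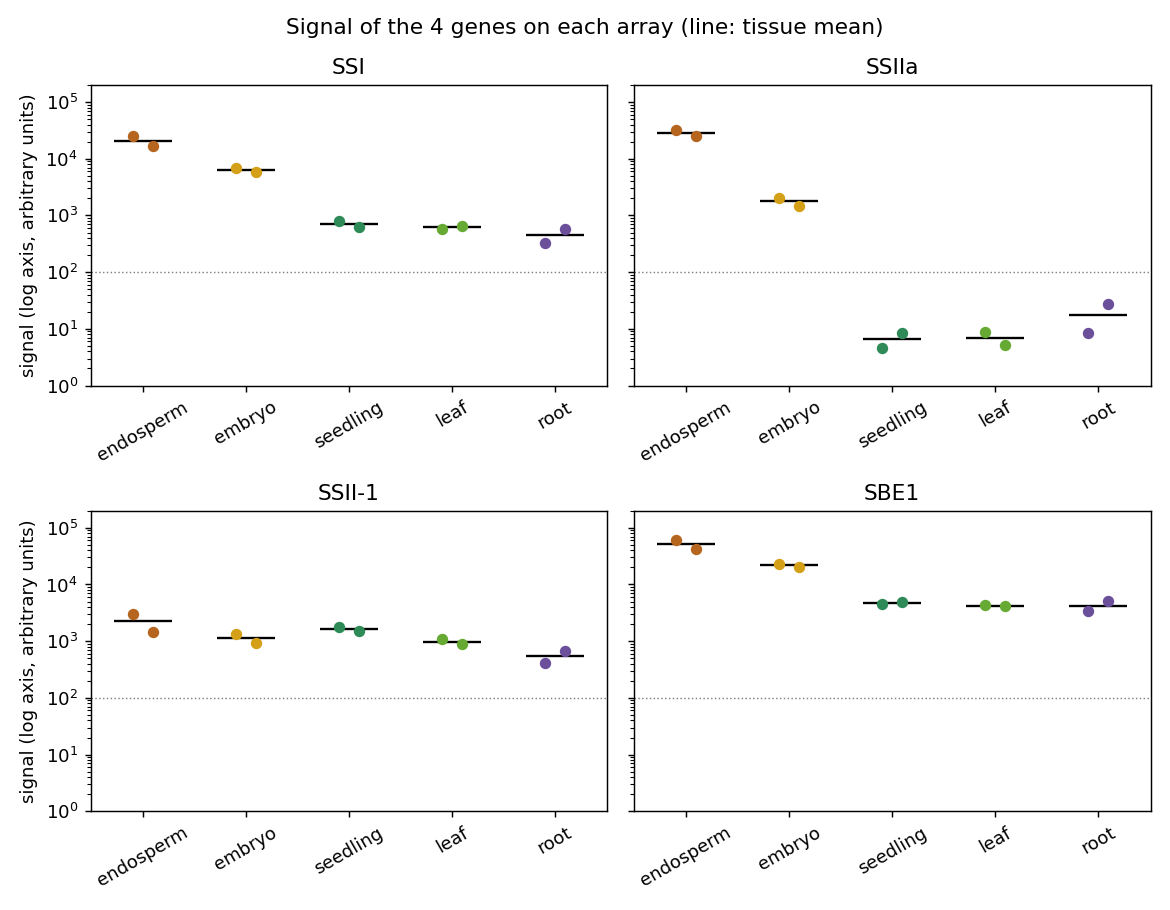
Signal (log axis, arbitrary units) of SSI, SSIIa, SSII-1 and SBE1 on the 2 arrays of each tissue, with points for arrays, black lines for tissue means and a dotted line at the filter of 100. SSIIa lies at 31628 and 25617 on the endosperm arrays and at most at 27.3 on the seedling, leaf and root arrays, and SSII-1 stays between 414 and 3010.1 throughout.

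The arrays differed in ways that touch these values. The marker lists were chosen with earlier results of these arrays known, so their sums describe the arrays and are no independent check of the labels. The summed signal of 8 endosperm marker genes (among them 2 GluA glutelins, GluC, the prolamin RP6 and Wx) was 372438 and 282890.0 on the endosperm arrays, 53429 and 66226 on the embryo arrays, and from 205 to 2469 on the other 6. Of 6 embryo markers, the sum was 72666 and 63110.1 in embryo and at most 4156 elsewhere, and of 6 root markers it was 42619.7 and 47375 in root and at most 13124 elsewhere. The 6 leaf markers summed to 89750.4 and 80918 in leaf, to 26068 on endosperm 2 against 3957 on endosperm 1, and to 18876 on root 1 against 6520 on root 2. A single gene, CAB2R, a chlorophyll-binding protein gene, held 24306 of the sum on endosperm 2 and 15512 of that on root 1, and each of the other 5 was at most 592 on endosperm 2. The Gapdh 3′ to 5′ ratio, a measure of RNA and labelling quality, was 4.71 and 5.28 in endosperm, 1.82 and 1.65 in embryo, 11.3 and 9.45 in seedling, 26.3 and 29.1 in leaf, and 2.04 and 24.0 in root. The part of these differences in the results was not tested beyond the fits with arrays left out and with the ratio as a covariate. The covariate was fitted beside the tissue means, so that it drew only on arrays of the same tissue, mainly root 1 and root 2. Such a fit cannot test the part of ratio differences between tissues.

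SSIIa had the largest log2 differences of the 4 genes between endosperm and every other tissue. Its signal was 31628 and 25617 in endosperm and 2030.2 and 1494 in embryo. In the seedling it was 4.52 and 8.52, in leaf 8.76 and 5.28, and in root 8.33 and 27.3. All endosperm arrays lay above all embryo arrays, and these above all arrays of the 3 other tissues, which overlapped each other. The mean was 28622 ± 4250.1 in endosperm, 1762 ± 379 in embryo, 6.52 ± 2.83 in seedling, 7.02 ± 2.47 in leaf and 17.8 ± 13.4 in root (SD, n = 2 each). Endosperm exceeded embryo by a log2 difference of 4.02 ± 0.39 (SE, adjusted p = 4.62e-05). It exceeded seedling by 10.31 ± 0.39 (adjusted p = 7.51e-08), leaf by 10.28 ± 0.39 (7.18e-08) and root by 9.78 ± 0.39 (1.09e-07). These last 3 sizes depend on the number added before the log, since the organs were near the low end of the scale: the difference from leaf was 11.83 with 1 added and 8.65 with 64. Embryo in turn was higher than seedling (6.29 ± 0.39, adjusted p = 2.15e-06), leaf (6.26, 2.23e-06) and root (5.76, 3.07e-06). These sizes depend on the added number too, and were 7.91, 7.80 and 6.74 with 1 added and 4.68, 4.67 and 4.47 with 64. Among seedling, leaf and root no pair was called, and with signals this dim the arrays do not order them. A second probe set annotated to the gene (Os.5738.2.A1_at) stayed between 34.6 and 116 on all arrays and was not tested; its 2 endosperm values, 116 and 97.98, were above those of the other tissues.

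SSI followed the same order with a smaller span. Its signal was 24784 and 17097 in endosperm, 6856 and 5912 in embryo, 782 and 632 in seedling, 583 and 659 in leaf, and 329.9 and 575 in root. Endosperm lay above embryo and embryo above the 3 seedling tissues on every array, and seedling and leaf overlapped. The mean of 20941 ± 5436 in endosperm stood against 6384 ± 668 in embryo (SD, n = 2 each), a log2 difference of 1.69 ± 0.31 (SE, adjusted p = 0.0019). This call was lost when the arrays were scaled to the bioB, bioC, bioD and cre control probe sets (0.74, adjusted p = 0.0924). That fit is called spike-in scaling here. These are hybridization controls, so the scaling is no measure of the amount of RNA in a tissue. Against seedling, leaf and root the endosperm differences were 4.84 ± 0.31, 5.02 ± 0.31 and 5.51 ± 0.31 (adjusted p = 1.96e-06, 1.51e-06 and 8.75e-07). Embryo was also higher than these 3, by 3.15, 3.33 and 3.82 (adjusted p = 3.7e-05, 2.59e-05 and 9.98e-06). SSI was thus measurable in the vegetative tissues, with 707 ± 106 in seedling, 621 ± 53.4 in leaf and 452 ± 173 in root, and none of these pairs was called. Seedling minus root was 0.67 (adjusted p = 0.16), and without root 2 it was 1.06 and called (adjusted p = 0.0314).

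SBE1, read by the probe set Os.22169.2.S2_x_at, had 61140.1 and 42117 in endosperm and 23379.8 and 20681 in embryo. It had 4568 and 4832 in seedling, 4352 and 4108 in leaf, and 3381 and 5111 in root. Both endosperm arrays were above both embryo arrays, and embryo above the rest, while root overlapped leaf and seedling. The endosperm mean was 51629 ± 13451 and the embryo mean 22031 ± 1908 (SD, n = 2 each), a log2 difference of 1.21 ± 0.24 (SE, adjusted p = 0.0032). That difference is close to the 2-fold limit. It was not called without endosperm 1 (0.94, adjusted p = 0.0214), with quantile normalization (0.70, 0.0243), with scaling to the median (0.91, 0.0902) or to the spike-ins (0.26, 0.503), or with the Gapdh ratio as a covariate (0.97, 0.0117). Endosperm exceeded seedling by 3.43 ± 0.24, leaf by 3.58 ± 0.24 and root by 3.60 ± 0.24 (adjusted p = 3.59e-06, 2.71e-06 and 2.55e-06). Embryo exceeded the same tissues by 2.22, 2.37 and 2.40 (adjusted p = 6.87e-05, 4.56e-05 and 4.11e-05). Seedling, leaf and root, at 4700 ± 187, 4229.99 ± 172 and 4246 ± 1223, were not told apart (adjusted p from 0.665 to 0.957).

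SSII-1 did not share this pattern. Its signal was 3010.1 and 1462 in endosperm, 1325 and 934 in embryo, 1747 and 1521 in seedling, 1076 and 894 in leaf, and 414 and 673 in root. The 2 endosperm arrays were 2.06-fold apart and enclosed both seedling arrays, and embryo overlapped leaf. By mean the order was endosperm (2236 ± 1095), seedling (1634 ± 160.1), embryo (1129.8 ± 277), leaf (985 ± 129) and root (544 ± 183, SD, n = 2 each), and no neighbours in that order were called. Endosperm was higher than root (1.96 ± 0.38, SE, adjusted p = 0.00204) and leaf (1.09 ± 0.38, adjusted p = 0.0336), and seedling was higher than root (1.60 ± 0.38, adjusted p = 0.0161). Endosperm minus embryo was 0.91 ± 0.38 (adjusted p = 0.0867) and endosperm minus seedling 0.36 ± 0.38 (adjusted p = 0.446).

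Single arrays and the scaling decided several SSII-1 calls. Without endosperm 1 the difference from leaf was 0.57 and not called (adjusted p = 0.228), and it was also lost without leaf 1 (1.22, 0.0813), leaf 2 (0.95, 0.158), seedling 1 (1.09, 0.052) or seedling 2 (1.09, 0.0518), with median scaling (0.54, 0.391), with spike-in scaling (0.026, 0.96) or with only these tissues in the fit (0.0653). Without endosperm 2 the difference from embryo was 1.42 and called (adjusted p = 0.014). The endosperm call against root held in all fits but the spike-in scaling (0.88, adjusted p = 0.0785). Seedling over root was not called without seedling 1 (1.497, adjusted p = 0.099), seedling 2 (1.70, 0.0883) or root 1 (1.26, 0.0737). Embryo minus root, 1.05 with an adjusted p of 0.054, was called without endosperm 1, endosperm 2 or root 2, with quantile normalization and with the Gapdh covariate.

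**Figure D2:**
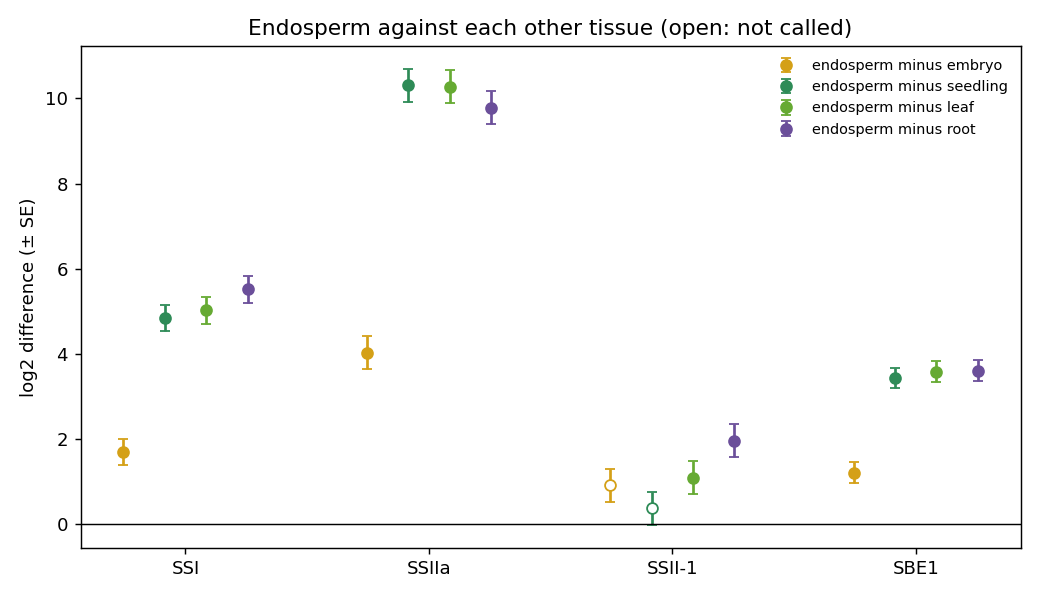
Log2 difference (vertical axis, ± SE from limma over 10 arrays) of endosperm minus each other tissue for the 4 genes, with filled points called and open points not called. SSIIa reaches 10.31 against seedling, while the 4 points of SSII-1 lie between 0.36 and 1.96.

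The plot of endosperm differences sets the 4 genes side by side. Against embryo, 3 of the 4 were called higher in endosperm (SSI, SSIIa and SBE1), where 16.3% of all tested probe sets were. Against seedling the same count was 3, with 19.8% of all tested, against leaf 4, with 21.8%, and against root 4, with 17.6%. Embryo was higher than seedling, leaf and root for SSI, SSIIa and SBE1 each time, beside 17.7%, 18.3% and 15.4% of all tested probe sets. SSIIa is in each of these counts. It passed the filter only through endosperm and embryo, so that it had to differ from seedling, leaf and root once it was tested. Seedling minus leaf gave no call among the 4 genes, at adjusted p from 0.448 to 0.986, and 2.71% of all probe sets were called in either direction. In leaf minus root SSII-1 alone of the 4 had an unadjusted limma p under 0.05, and in seedling minus leaf 0 of 4 did. Seedling minus root gave 1 call, SSII-1, beside 11.1% called higher, and leaf minus root gave 0, beside 19.8% in either direction. The sizes differed between genes, from 1.21 for SBE1 to 4.02 for SSIIa in endosperm minus embryo, but the difference between genes was not tested. The comparisons share the same endosperm or embryo arrays, so their calls are not independent of each other.

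Scaling moved all endosperm comparisons together. With spike-in scaling the median log2 difference of all tested probe sets was -0.81 for endosperm minus embryo and -1.19 for endosperm minus leaf, against 0.02 and -0.20 as given. Among the probe sets called between endosperm and embryo, 10.97% were higher in endosperm with spike-in scaling, 30.35% with median scaling and 44.76% as given. Against seedling, leaf and root these shares were 10.76%, 12.23% and 10.28% with spike-in scaling, 28.28%, 24.13% and 29.78% with median scaling, and 38.62%, 41.37% and 40.07% as given. In endosperm minus embryo with spike-in scaling SSI was at 0.74, SBE1 at 0.26 and SSII-1 at -0.031. The scaling multiplies every signal of an array by the same factor, which moves these bright genes and the median together. That they stayed above the median was therefore largely fixed beforehand. SSIIa kept its call under this scaling, at 3.07.

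SBE1 is the only one of the 4 with several informative probe sets, and they did not give the same contrast between the seed parts. The rice gene table lists 5 transcripts for SBE1 and 1 for each of the other 3 genes, and 8 probe sets are annotated to SBE1, of which 5 were tested. By the platform's naming, a probe set ending in a_at may read several transcripts of 1 gene, and x_at marks probes that may also match other sequences. Os.22169.2.S2_a_at had 61275 and 44247 in endosperm and 20193 and 17365 in embryo, a log2 difference of 1.47 ± 0.22 (adjusted p = 0.000542). Os.22169.1.S1_a_at had 46796 and 36506 in endosperm and 21060 and 17552 in embryo (1.10 ± 0.47, adjusted p = 0.086, not called), and was called in 3 alternatives, without root 1, without root 2 and with only the 2 seed parts in the fit. The call of Os.22169.2.S2_a_at was lost with quantile normalization (0.97) and spike-in scaling (0.53). These 2 probe sets and the fixed probe set put embryo at 35.6% to 46.4% of endosperm.

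The other 2 probe sets put embryo far lower. Os.22169.4.S1_x_at had 22337 and 32730.0 in endosperm and 2237 and 2505 in embryo (3.50 ± 0.37, adjusted p = 7.55e-05). Os.22169.1.S2_at had 2158 and 1493 in endosperm and 126 and 222 in embryo (3.30 ± 0.48, adjusted p = 0.000484). Their embryo means were 8.61% and 9.54% of the endosperm means. In Os.22169.4.S1_x_at endosperm 2 was the brighter array, and in the other 4 it was endosperm 1. Both of these calls held in all 24 alternatives, from 2.37 to 3.78, and the difference between probe sets was not tested.

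**Figure D3:**
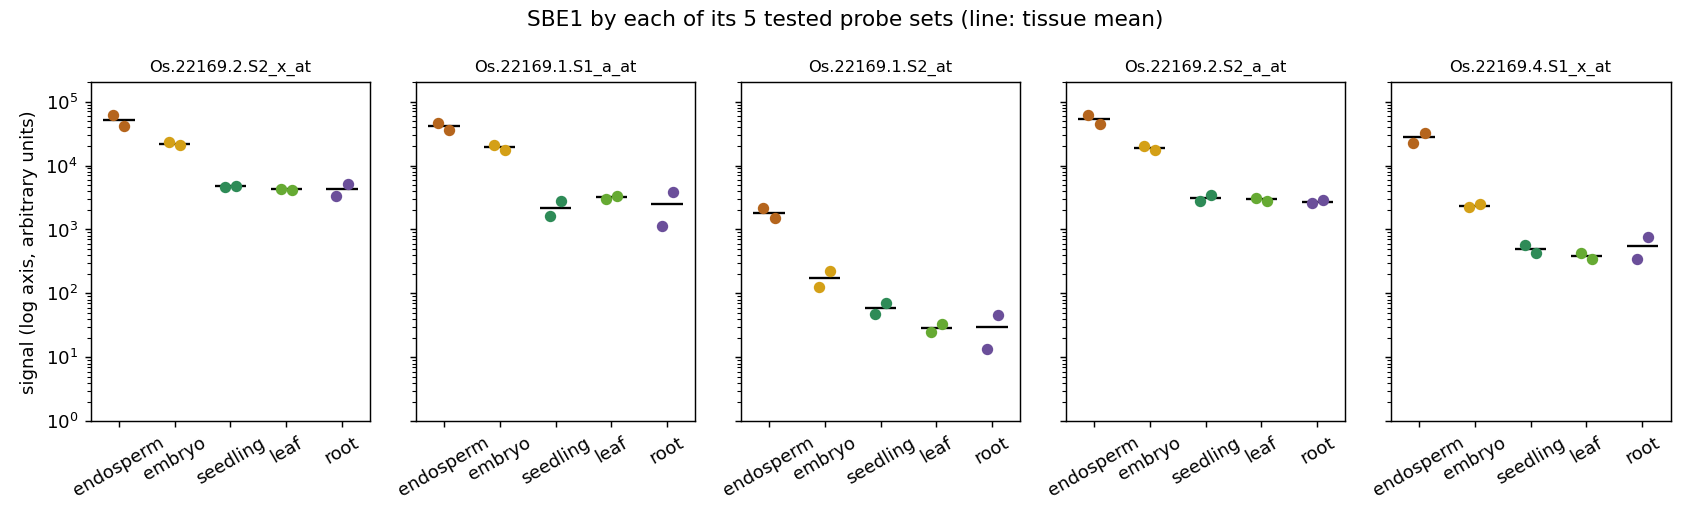
Signal (log axis, arbitrary units) of the 5 tested SBE1 probe sets on the 2 arrays of each tissue, with points for arrays and lines for means. The step between endosperm and embryo is large for Os.22169.1.S2_at and Os.22169.4.S1_x_at (embryo at 9.54% and 8.61% of endosperm) and small for the other 3.

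All 5 tested SBE1 probe sets were called higher in endosperm than in seedling, leaf and root, with differences from 3.43 to 6.07. Of these, Os.22169.1.S2_at passed the filter only through endosperm and embryo, so that it had to differ from the other tissues once it was tested. Embryo was called above the 3 seedling tissues in all 5 as well, the smallest being Os.22169.1.S2_at against seedling (1.31, adjusted p = 0.0458), a call that was lost in 11 of 24 alternatives, among them the fits without either embryo, seedling or leaf array. Without embryo 2, the 3 embryo values of this probe set were 0.94, 1.66 and 1.73 against seedling, leaf and root and were not called, and without leaf 1 the value against leaf was 1.89 and not called. No pair among seedling, leaf and root was called by any of them with all arrays. Without root 2, leaf minus root of Os.22169.1.S1_a_at was 1.46 and called (adjusted p = 0.0122), and without endosperm 1 and root 2 together so was seedling minus root of Os.22169.1.S2_at (1.33, adjusted p = 0.0439). For Os.22169.1.S1_a_at and Os.22169.1.S2_at the root 2 array was 3.40-fold and 3.46-fold above root 1, against 1.51-fold for the fixed probe set. The 3 untested SBE1 probe sets and the second SSIIa probe set reached at most 116.

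The embryo level of the members was set beside that of endosperm markers. Embryo held 6.16% of the endosperm signal for SSIIa, 30.5% for SSI, 42.7% for SBE1 and 50.5% for SSII-1. Over the 8 endosperm marker genes the embryo share ran from 5.61% to 39.99%, with a median of 10.4%. The sugar exporter gene Os8N3 (SWEET11) was at 5.61%, the endosperm transcription factor gene NF-Y4 (NF-YB1) at 6.28% and Wx, the granule-bound starch synthase of amylose, at 6.91%, while the glutelin gene GLUA-2 was at 39.99%. Each marker was read by a single probe set, although 5 were tested for Wx. Other Wx probe sets had endosperm and embryo means of 31329 and 2300.5, 37267 and 4485, and 33899 and 9277. The embryo share of Wx thus depended on the probe set. SSI and SBE1 by its fixed probe set were above the share of 7 and 8 of these 8 markers. By Os.22169.4.S1_x_at and Os.22169.1.S2_at, SBE1 was at 8.61% and 9.54%, below the marker median. The part of endosperm RNA in the embryo values was not tested.

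**Figure D4:**
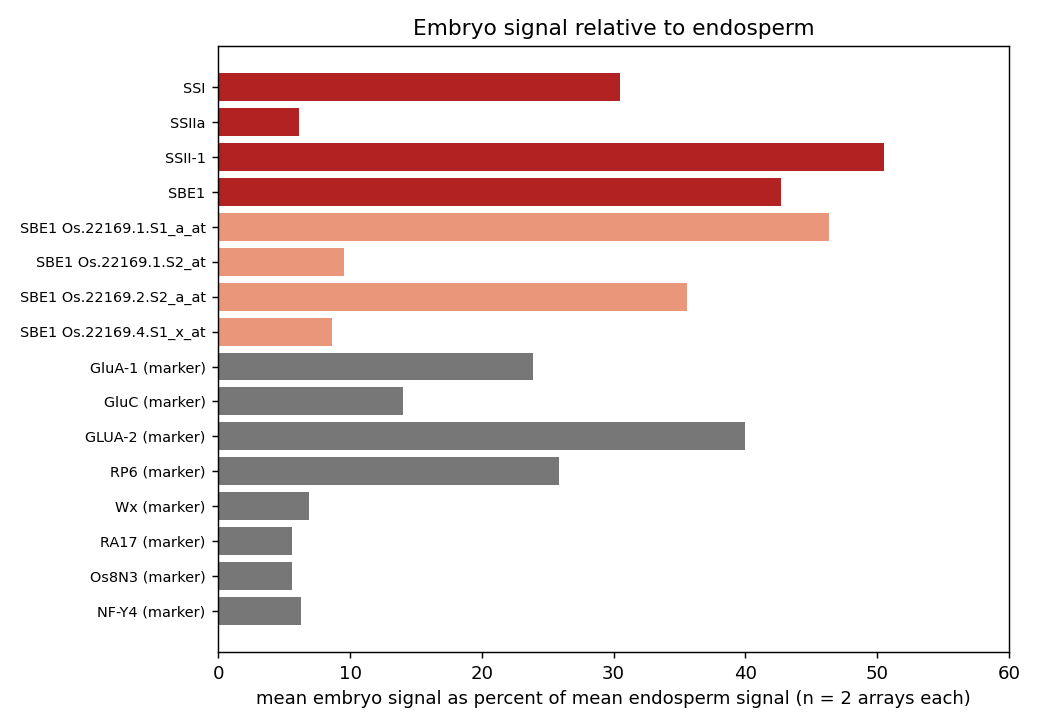
Mean embryo signal as a percent of mean endosperm signal (horizontal axis, 2 arrays a tissue) for the 4 members (dark red), the other tested SBE1 probe sets (light red) and 8 endosperm marker genes (grey). SSIIa at 6.16% lies beside Wx, RA17, Os8N3 and NF-Y4, each marker read by a single probe set. SSII-1, SBE1 by its fixed probe set and SSI lie between 30.5% and 50.5%, with the SBE1 probe sets Os.22169.4.S1_x_at and Os.22169.1.S2_at at 8.61% and 9.54%.

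The other isoform that could be followed, SSIIb (listed as SSII-2), was low in endosperm, where SSIIa was high. It is the SSII gene known for leaf expression in rice. Its signal was 43.8 and 165 in endosperm, 220 and 189 in embryo, 781 and 775 in seedling, 1029 and 1055 in leaf, and 520 and 524 in root. Leaf was above all other tissues on both arrays, and the endosperm and embryo arrays were below all seedling, leaf and root arrays. Endosperm was lower than seedling (-2.93, adjusted p = 0.000426), leaf (-3.34, 0.00018) and root (-2.37, 0.00186), and embryo lower than the same 3 (-1.85, -2.27 and -1.29, with adjusted p = 0.00785, 0.00261 and 0.0486). The last of these was lost in 15 of 24 alternatives, the replicate block among them (adjusted p = 0.0525). Endosperm minus embryo was -1.08 for SSIIb and was not called (adjusted p = 0.0863). It was called in 4 of 24 alternatives, with quantile normalization (-1.32), median scaling (-1.35) and spike-in scaling (-1.83) and without endosperm 2 (-1.88, adjusted p = 0.00149), and was -0.28 without endosperm 1.

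Of 32 listed genes of starch synthesis, 11 could be matched to the array through the gene table and all 11 were tested, including the 4 members. Against embryo 6 of the 11 were higher in endosperm and 2 lower (16.3% and 20.1% of all tested probe sets), with a median log2 difference of 1.09 against 0.02 for all. Against seedling 5 were higher and 3 lower (19.8% and 31.5%, median 0.84), against leaf 6 and 3 (21.8% and 30.9%, 1.09), and against root 6 and 3 (17.6% and 26.4%, 1.96). Leaving out the members, the other 7 gave 3 higher and 2 lower against embryo, and 2 higher and 3 lower against each of seedling, leaf and root, and their medians were -0.17, -0.58, -0.34 and 0.46. The 2 others that were higher in endosperm in all 4 comparisons were Wx and AGPS2, whose product helps to make ADP-glucose. Wx, like SSIIa, passed the filter only through endosperm and embryo, with at most 46.0 on the other arrays. Both therefore had to differ from seedling, leaf and root once they were tested, and both are in the counts above. AGPS2 was higher by 2.36 against embryo, 3.56 against seedling, 3.30 against leaf and 6.27 against root. DPE2, a disproportionating enzyme of maltose metabolism, was lower in endosperm in all 4, with differences of -1.96, -1.74, -2.62 and -1.89 against embryo, seedling, leaf and root. The others that were lower against seedling, leaf and root were SSIIb and the regulator gene RSR1, which encodes no enzyme of the pathway. RSR1 was at -4.19, -4.02 and -4.61 against these tissues and was not called against embryo (-0.17). Against embryo, the gene called lower beside DPE2 was DPE1, with means of 1561 in endosperm and 8109 in embryo (-2.38, adjusted p = 8.63e-05). Embryo was also higher in DPE1 than seedling (3.22), leaf (2.38) and root (2.84). FLO6 was called higher against embryo (1.09, adjusted p = 0.0165). Neither DPE1 nor FLO6 was called between endosperm and seedling, leaf or root. Of 24 alternatives, the DPE2 call was lost in 4 against embryo, 6 against seedling, 1 against leaf and 3 against root. Without endosperm 1 the values against embryo, seedling and root were -0.94, -0.72 and -0.87 and were not called. The call against embryo was also lost without embryo 1 (-2.11, adjusted p = 0.0617) or embryo 2 (-1.81, adjusted p = 0.0985), that against seedling without seedling 1 (-1.88, adjusted p = 0.0612) or seedling 2 (-1.60, adjusted p = 0.103), and that against root without root 2 (-1.40, adjusted p = 0.118). With the Gapdh covariate the calls against seedling (-1.44, adjusted p = 0.0625) and leaf (-1.92, adjusted p = 0.0657) were lost, and with only the tissues compared that against seedling (adjusted p = 0.064).

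The profiles most like each member over the 10 arrays were sought among 2818 tested (2814 for SBE1) probe sets with 1 gene that has a name besides its locus number, by Pearson's r of log2 signals. The 10 points are 2 arrays of each tissue and are shared by all profiles, so these values are a description. Nearest to SSI were SBE1 (0.996 for the fixed probe set, 0.992 for another) and 3 probe sets of Wx (0.989 to 0.993). Nearest to SSIIa were CPK23 (0.997), a calcium-dependent protein kinase also named SPK, and RASI (0.996), an inhibitor of amylase and subtilisin. Next were NF-Y4 (0.995), SBE1 by the probe set Os.22169.2.S2_a_at (0.994) and Wx (0.994). Nearest to SBE1 were SSI (0.996), 2 probe sets of Wx (0.996 and 0.993), CPK23 (0.994) and SSIIa (0.993).

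SSII-1 had no profile as close. Its tissue means ran only from 544 in root to 2236 in endosperm, with the endosperm arrays 2.06-fold apart. The part of this narrow span in its lower r was not tested. Its nearest were GLU1, an endoglucanase (0.927), the cyclin gene CYCT1-1 (0.916), OsC3H18, a zinc finger gene (0.895), HSP81-3, a heat shock protein gene (0.888), and CEBIP, a chitin receptor gene (0.881). GLU1 averaged 9129 in endosperm, 2917 in embryo, 6033 in seedling, 4136 in leaf and 1926 in root, the same order as SSII-1 except that leaf was above embryo. Among the members themselves r was 0.985 between SSI and SSIIa, 0.993 between SSIIa and SBE1, and 0.634, 0.538 and 0.606 between SSII-1 and SSI, SSIIa and SBE1.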

How the data were processed

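The intensity values are 1 signal per probe set and array, computed by the authors with MAS5, per the submitters' processing notes; the scaling target is not given in the sources used here, but each deposited array already had a trimmed mean of 500 with 2% of values left out at each end. Signals were set to that mean, 16 was added and log2 was taken. Of 57381 probe sets, 123 are controls, and 30014 with a signal of at least 100 on at least 2 arrays were tested with limma 3.58.1 in R 4.3.3. The model estimated 5 tissue means, with the prior variance allowed to vary with signal; 5 degrees of freedom came from the residuals and 5.14 from the prior. The p-values were adjusted by Benjamini-Hochberg within each of 10 comparisons. With 2 arrays a tissue the precision is limited, and p-values cover the spread between biological repeats as labelled. The code was tested on simulated data. Genes were named from the platform annotation (22436 probe sets with 1 gene, 95 with several). The 4 members, all their probe sets, the listed starch genes and the 5 closest profiles per member are named. Members and lists were chosen with earlier results of these data known, and the alias SSII-2 for SSIIb was added after the files were read. Of 32 starch genes, 20 could not be matched to a gene identifier here and are not analysed here, nor are promoter and protein sequences. The labels do not say that a replicate number marks a shared batch or day, so the numbers were not taken as pairs. Deviations of same-numbered arrays from their tissue means correlated from -0.11 to 0.10. Alternatives covered the scaling, added number, filter, trend, array weights, replicate block, Gapdh covariate, the tissues fitted and arrays left out.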

Additional observations from a re-analysis of the deposited data

How the results depend on the processing

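Of 957 alternative values for the 40 member results, 912 kept direction and side of the threshold, and 24 results did so throughout, 22 of them under 24 alternatives and 2 under 23. These counts include the signals as deposited, which already had the trimmed mean of 500 and so repeated the main fit. They also include settings that could change only the p-value, such as the replicate block, and uncalled pairs that stayed uncalled. With only the tissues compared, SSIIa did not pass the filter in the 3 pairs of seedling, leaf and root and had no value. With spike-in scaling, endosperm minus embryo was 0.74 for SSI, -0.031 for SSII-1 and 0.26 for SBE1, SSII-1 was -0.70, 0.026 and 0.88 against seedling, leaf and root, and 3 starch genes were higher in endosperm than embryo. Quantile normalization gave 0.70 for SBE1 in endosperm minus embryo and 1.22 for SSII-1 in embryo minus root. Median scaling gave 0.91 for SBE1 in endosperm minus embryo, 0.54 and -0.076 for SSII-1 in endosperm and embryo minus leaf, and -0.070 for SSI and -0.10 for SBE1 in seedling minus leaf. With the Gapdh covariate SBE1 was 0.97 in endosperm minus embryo and -0.29 in leaf minus root, SSII-1 1.42 in embryo minus root and SSIIa 0.28 in seedling minus leaf. With only the tissues compared, SSII-1 in endosperm minus leaf was 1.09 and not called. Without endosperm 1 and root 2 together, SBE1 was 0.94 in endosperm minus embryo, SSII-1 -0.16, 0.57, 1.39 and 1.21 in endosperm minus seedling, endosperm minus leaf, embryo minus root and leaf minus root, SSI 1.06 in seedling minus root, and 1 starch gene was lower in endosperm than embryo. Leaving out 1 array at a time gave, for SSII-1, 0.39 to 1.42 in endosperm minus embryo, -0.16 to 0.88 in endosperm minus seedling, 0.57 to 1.60 in endosperm minus leaf, -0.069 to 0.43 in embryo minus leaf, 0.71 to 1.39 in embryo minus root and 1.26 to 1.94 in seedling minus root. It gave 0.94 to 1.47, -0.12 to 0.47 and -0.27 to 0.32 for SBE1 in endosperm minus embryo, seedling minus root and leaf minus root, -0.16 to 0.10 for SSIIa in seedling minus leaf, 0.28 to 1.06 for SSI in seedling minus root, and 1 to 3 starch genes lower in endosperm than embryo. Among the other SBE1 probe sets, uncalled pairs of seedling, leaf and root changed sign. With the Gapdh covariate, Os.22169.1.S1_a_at was 0.093, -0.25 and -0.35 in seedling minus leaf, seedling minus root and leaf minus root, and Os.22169.1.S2_at -0.49 in leaf minus root. Median scaling gave -0.17 for Os.22169.2.S2_a_at in seedling minus leaf and 0.0042 for Os.22169.4.S1_x_at in seedling minus root, and spike-in scaling -0.0059 for Os.22169.1.S1_a_at in seedling minus root. Without endosperm 1 and root 2, Os.22169.4.S1_x_at was 0.50 and 0.15 in seedling and leaf minus root. Leaving out 1 array at a time gave -0.055 to 0.21 for Os.22169.2.S2_a_at in seedling minus leaf, -0.86 to 0.89 for Os.22169.1.S1_a_at and -0.61 to 0.50 for Os.22169.4.S1_x_at in seedling minus root, and in leaf minus root -0.29 to 1.46 for Os.22169.1.S1_a_at, -0.48 to 0.61 for Os.22169.1.S2_at and -0.95 to 0.15 for Os.22169.4.S1_x_at. The replicate block left SSI at 1.69 in endosperm minus embryo and changed no member call. All probe sets called moved most in seedling minus leaf, 105 (without seedling 1) to 3594 (array weights) against 812, then seedling minus root, 1824 to 9274 against 5694, leaf minus root, 2652 to 9707 against 5935, and embryo minus leaf, 7760 with the Gapdh covariate against 12559. The cause was not tested.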
